A study of Mus musculus with 12 samples.

Results

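Chaperones help other proteins fold, and the unfolded protein response (UPR) adjusts folding in the endoplasmic reticulum (ER) to its load. The transcripts of 50 mouse genes of these systems were followed in CD8 T cells that received a Batf3 vector or a control vector, in stimulated and in non-stimulated cultures. The members were taken by symbol from the read-count table, which held 55335 genes. By role they comprised 19 cytosolic heat shock genes, 3 mitochondrial chaperones, 7 subunits of the cytosolic chaperonin TRiC, 16 ER chaperones and folding enzymes, and 5 UPR regulators and ER degradation genes.

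All cells came from the spleen of OT-I mice on the C57BL/6 background, whose CD8 T cells carry a transgenic receptor for an ovalbumin peptide. The Batf3 groups received a retroviral vector with Batf3 and the control groups the empty vector, and only cells that the sort called transduced were cultured. Per the labels, the stimulated cultures stood for 6 h on plate-bound anti-CD3e with anti-CD28 at 1 µg/ml each, and the non-stimulated cultures for the same time in IL-15 at 100 ng/ml. IL-15 is named for the non-stimulated cultures alone, so stimulated and non-stimulated cells differ in IL-15 too as far as the labels say. Each of the 4 groups had 3 libraries, which the series calls technical replicates. The SD, SE and p-values below therefore measure technical spread and do not cover the spread between mice or transductions.

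In the cytosol, HSP70 proteins such as HSPA8 bind unfolded chains with J-domain partners (the DNAJ proteins), pass some clients to HSP90, and pass others to the barrel-shaped TRiC, which folds actin and tubulin. HSF1 is the transcription factor of the heat shock response. Mitochondria have their own set, in which HSPA9 pulls in and binds imported proteins and the HSPD1 and HSPE1 chaperonin folds them. In the ER, HSPA5 (BiP) and HSP90B1 (GRP94) handle secretory and membrane proteins, calreticulin and calnexin bind glycoproteins, and protein disulfide isomerases form their disulfide bonds. Unfolded protein in the ER activates the sensors IRE1 (Ern1), ATF6 and PERK (Eif2ak3). Splicing of Xbp1 RNA by IRE1 yields the active XBP1 factor, and XBP1 and ATF6 raise ER chaperones and degradation factors. Activated T cells grow and make cytokines, which raises the demand on all of these systems.

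Total counts lay between 14211564 and 14468231 per library, and levels are given as CPM, read counts relative to the library total with TMM scaling factors. Batf3 itself lay between 413 and 474 CPM in the 6 Batf3 libraries and between 5.83 and 19.1 CPM in the 6 control libraries. The summed CPM of 5 CD8 T cell markers lay between 1026 and 1804. Summed markers of B cells, CD4 T cells, NK cells, macrophages, neutrophils and erythroid cells stayed at or below 6.15 CPM in every library. Of 4 plasma cell markers, Tnfrsf17 had no counts and Mzb1 had counts in 1 library. The sum of the 4 lay between 3.35 and 3.91 CPM in Batf3 stimulated cells and 6.02 and 6.17 CPM in control stimulated cells. It lay between 0.577 and 0.829 CPM in Batf3 non-stimulated cells and 0.796 and 1.26 CPM in control non-stimulated cells. In stimulated cells nearly all of the sum came from Sdc1. Jchain had few counts and went the other way, with means of 0.0740 and 0.102 CPM in Batf3 and control stimulated cells. In Batf3 and control non-stimulated cells its means were 0.298 and 0.464 CPM. Plasma cells are rich in ER chaperones, and the part of these marker differences in the results below was not tested. The share of counts from mitochondrially encoded genes was between 1.64 and 2.31%, the lowest being replicate 3 of Batf3 stimulated cells. Bulk RNA cannot tell fewer expressing cells from less RNA per cell.

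The 50 genes together made up a larger part of the RNA in stimulated than in non-stimulated cells, and a smaller part with Batf3 than with the control vector in both cultures. Their summed level was 27034 ± 127 CPM in Batf3 stimulated cells, 29153 ± 298 CPM in control stimulated cells, 10473 ± 86.6 CPM in Batf3 non-stimulated cells and 14129.6 ± 81.3 CPM in control non-stimulated cells (SD, n = 3). Before TMM scaling, the members had 364176 of 14248708 counts in replicate 1 of Batf3 stimulated cells and 387376 of 14337651 in replicate 1 of control stimulated cells. In non-stimulated cells, replicate 1 had 162730 of 14251989 counts with Batf3 and 211282 of 14434877 with the control vector.

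Class sums are not corrected for the number or length of the genes and do not rank the classes by level per gene. The cytosolic heat shock genes, the class with the most members, had the largest sum. They summed to 13087 ± 96.9 CPM in Batf3 stimulated cells, 14338 ± 119 CPM in control stimulated cells, 5594 ± 48.3 CPM in Batf3 non-stimulated cells and 7925 ± 44.4 CPM in control non-stimulated cells. The ER chaperones came next, with 6800.2 ± 55.7, 7271 ± 104, 2459 ± 47.5 and 3142 ± 17.8 CPM in the same groups. TRiC subunits summed to 3901 ± 44.8, 4076 ± 45.0, 1555 ± 23.2 and 1934 ± 18.4 CPM. The 3 mitochondrial chaperones had the lowest sum of the chaperone classes in non-stimulated cells, with 434 ± 8.13 CPM under Batf3 and 639 ± 17.4 CPM under the control vector. In stimulated cells their sum was 2538 ± 48.6 CPM under Batf3 and 2707 ± 22.3 CPM under the control vector. The 5 UPR regulators summed to 708 ± 18.2, 762 ± 9.91, 431 ± 5.44 and 489 ± 5.15 CPM. In each of the 5 classes the Batf3 libraries lay below the control libraries of the same culture, and all stimulated libraries lay above all non-stimulated ones.

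**Figure D1:**
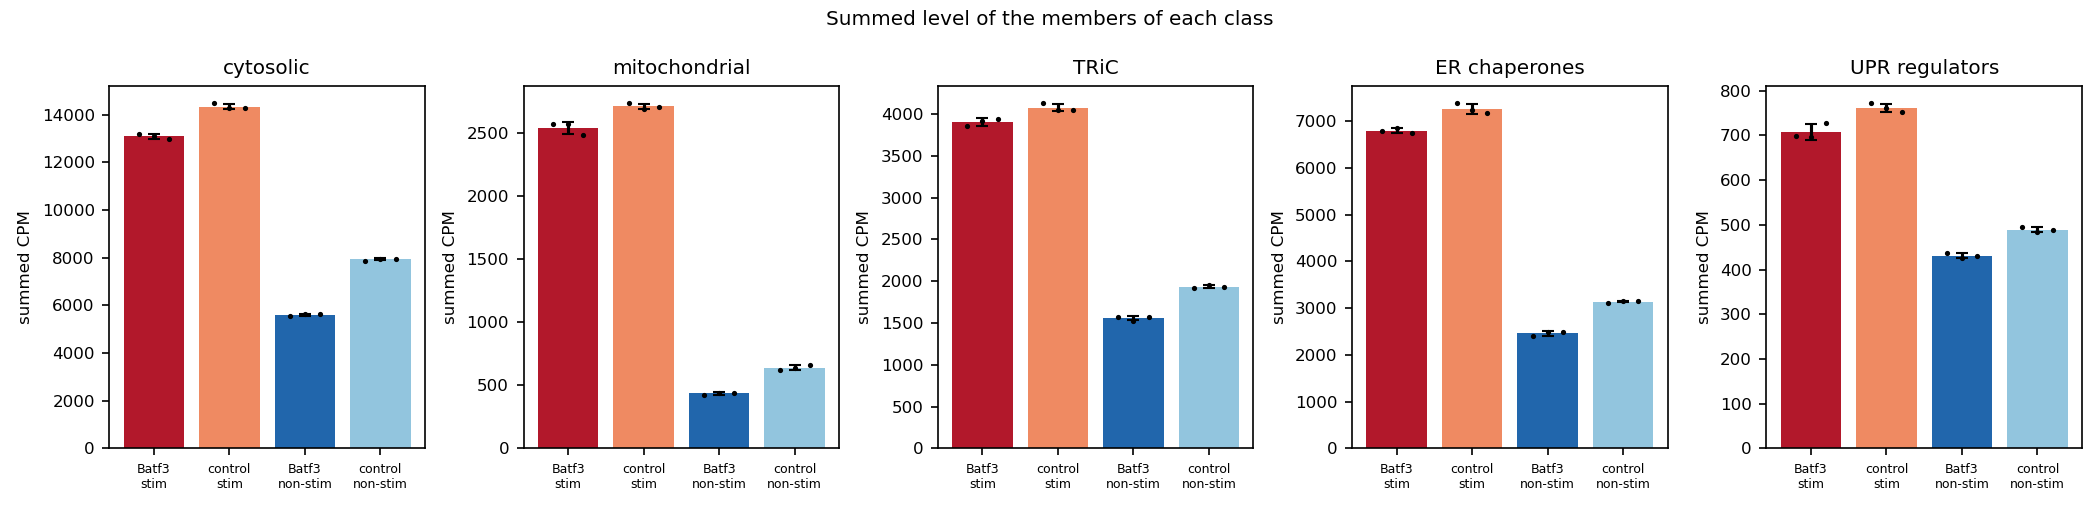
Summed CPM of the members of each class. Bars are means of 3 libraries, error bars are SD and dots are libraries, with Batf3 stimulated, control stimulated, Batf3 non-stimulated and control non-stimulated cells in that order. Stimulated bars are higher than non-stimulated ones in every class, with ratios in control cells between 1.56 for UPR regulators and 4.24 for mitochondrial chaperones.

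Levels of different genes can be compared only per length, and the next values are mean CPM per kb of annotated exon. Hspa8, the constitutive cytosolic HSP70, had the highest level of the list in non-stimulated cells, with 552 CPM per kb under Batf3 and 836 under the control vector. Hsp90ab1, the constitutive HSP90, followed with 469.7 and 679 CPM per kb. In stimulated cells this order was turned round, since Hsp90ab1 reached 1348 and 1464 CPM per kb and Hspa8 1192 and 1344 CPM per kb under Batf3 and the control vector. As counted, the libraries of these neighbours did not overlap in any group. Of the 50-base stretches of Hspa8 transcripts, however, 38.6% also occurred in another gene, against 3.44% for Hsp90ab1. Gm15459, which shares the most with Hspa8, had means of 2877 CPM in Batf3 stimulated and 3208 CPM in control stimulated cells. The order of Hspa8 and Hsp90ab1 in stimulated cells is therefore uncertain.

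Hsp90aa1 and Hspa5 held the next places in control non-stimulated cells, with 167 and 161 CPM per kb. In stimulated cells Hspa5 and the mitochondrial Hspd1 did so, with 565 and 476 CPM per kb under Batf3 and 591 and 509.8 CPM per kb under the control vector. The stress-inducible pair Hspa1a and Hspa1b was near the bottom of the list, with 2.01 and 2.95 CPM per kb in control non-stimulated cells. Dnajb4, a J-domain protein, and Ern1, the IRE1 sensor, were lower still in those cells, with 1.30 and 1.51 CPM per kb. The lowest member was Hspb1 (HSP27), a small heat shock protein. It had counts in 2 of the 12 libraries, 0.0738 CPM in 1 Batf3 stimulated and 0.128 CPM in 1 Batf3 non-stimulated library, where 3 counts stand for between 0.191 and 0.229 CPM. Any difference between groups was not detectable at this depth, and it was the only member left out of the tests, which covered 49.

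**Figure D2:**
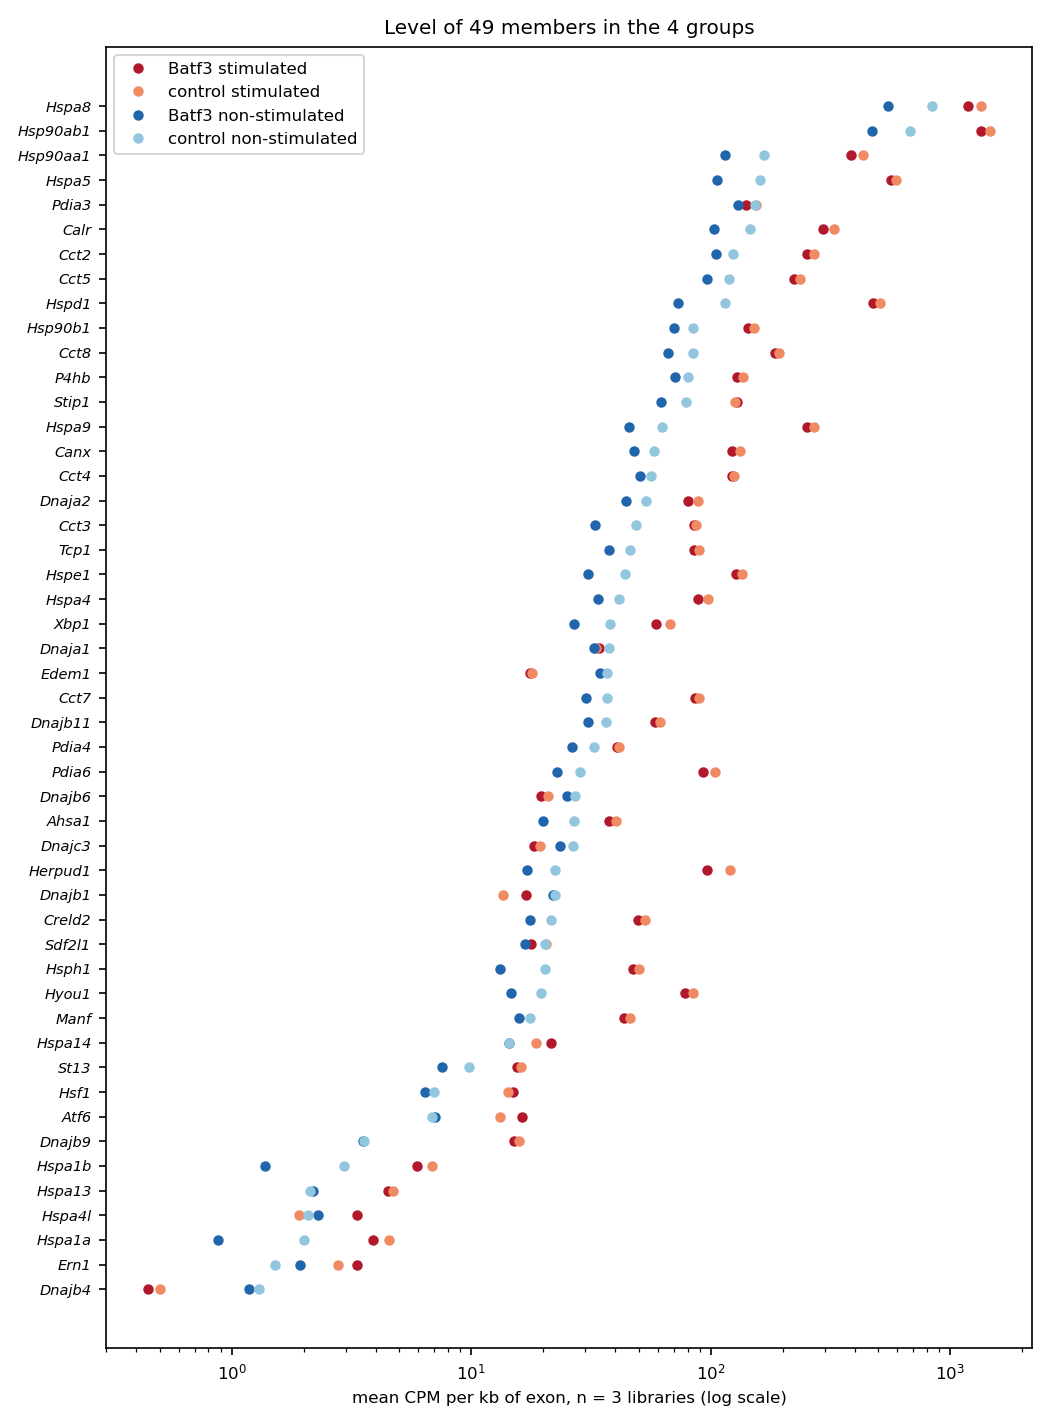
Mean CPM per kb of exon (log axis) of the 49 tested members in the 4 groups, sorted by the level in control non-stimulated cells. Hspa8 and Hsp90ab1 stand at the top in all 4 groups, and the order below them differs between stimulated and non-stimulated cells.

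Since HSF1 and the UPR factors bind known elements, the promoters of the members were searched for them in RefSeq windows (GRCm38.p6) from 250 bases before to 50 after the annotated start. Of 50 members 39 had a window. Those without one were Hspa8, Hsp90aa1, Hsp90ab1, Hsf1, St13, Hspa9, Cct4, Hspa13, Hyou1, Manf and Atf6, which were not searched. The heat shock element was searched as GAANNTTC or TTCNNGAA, the ER stress response element as CCAAT, any 9 bases and CCACG, the UPR element as TGACGTG and the AP-1 site, to which BATF family proteins bind with JUN partners, as TGANTCA, on both strands. A heat shock element occurred in 7 of 14 cytosolic genes, 2 of 2 mitochondrial chaperones and 2 of 6 TRiC subunits, and in 17.0% of all 27025 genes. None of 13 ER chaperones and 4 UPR regulators held one. The 2 mitochondrial chaperones were Hspd1 and Hspe1, which hold the same element on opposite strands. Hspa1a and Hspa1b have near-identical windows. The counts of genes are therefore not counts of separate elements. The ER stress response element occurred in 7 of the 13 ER chaperones, in no other member that was searched, and in 0.137% of all genes. Those 7 were Calr, Canx, Creld2, Dnajc3, Hsp90b1, Hspa5 and Pdia6. The UPR element occurred in Hspa5 alone of the 39 members and in 2.22% of all genes. An AP-1 site occurred in 2 of 39 members, Hspa5 and Cct5, and in 8.97% of all genes. A match is a description of the letters and shows no binding.

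The 250 bases before the start are shown for 6 genes, 5′ to 3′ on the gene's strand, because they are the inducible HSP70 pair, whose changes with Batf3 are the largest of the list, the shared start of the mitochondrial chaperonin, and the 3 ER chaperones with the highest CPM in control non-stimulated cells among those with an ER stress response element. Capitals mark the heat shock element in the first 3, in Hspa5 the AP-1 site, the UPR element and the ER stress response element in that order, and in Hsp90b1 and Calr the ER stress response elements.
Hspa1a (chr17:34972157-34972406, minus strand): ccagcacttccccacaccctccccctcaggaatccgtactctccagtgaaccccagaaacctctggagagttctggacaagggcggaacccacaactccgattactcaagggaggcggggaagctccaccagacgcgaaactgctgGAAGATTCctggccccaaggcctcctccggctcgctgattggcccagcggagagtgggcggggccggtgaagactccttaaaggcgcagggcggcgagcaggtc
Hspa1b (chr17:34959239-34959488, minus strand): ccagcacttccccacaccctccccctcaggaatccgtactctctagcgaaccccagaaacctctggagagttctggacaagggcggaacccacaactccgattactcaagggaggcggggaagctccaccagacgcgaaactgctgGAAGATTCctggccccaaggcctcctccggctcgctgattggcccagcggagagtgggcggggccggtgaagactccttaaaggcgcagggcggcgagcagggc
Hspe1 (chr1:55087898-55088147, plus strand): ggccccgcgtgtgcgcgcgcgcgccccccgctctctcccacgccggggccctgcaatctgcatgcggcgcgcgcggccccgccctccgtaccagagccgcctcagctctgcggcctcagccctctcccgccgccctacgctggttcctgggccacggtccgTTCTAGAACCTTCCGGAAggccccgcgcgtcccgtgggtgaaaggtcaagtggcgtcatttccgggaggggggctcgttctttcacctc
Hspa5 (chr2:34771840-34772089, plus strand): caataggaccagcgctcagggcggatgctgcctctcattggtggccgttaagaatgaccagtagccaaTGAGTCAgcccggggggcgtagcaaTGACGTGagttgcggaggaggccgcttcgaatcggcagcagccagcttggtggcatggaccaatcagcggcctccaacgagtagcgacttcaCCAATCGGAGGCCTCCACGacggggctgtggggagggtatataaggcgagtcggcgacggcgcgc
Hsp90b1 (chr10:86705445-86705694, minus strand): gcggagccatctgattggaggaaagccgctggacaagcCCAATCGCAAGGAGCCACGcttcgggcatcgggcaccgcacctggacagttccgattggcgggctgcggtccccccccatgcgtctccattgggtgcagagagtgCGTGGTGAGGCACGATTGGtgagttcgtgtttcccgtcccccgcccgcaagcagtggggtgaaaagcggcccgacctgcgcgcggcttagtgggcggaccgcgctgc
Calr (chr8:84846932-84847181, minus strand): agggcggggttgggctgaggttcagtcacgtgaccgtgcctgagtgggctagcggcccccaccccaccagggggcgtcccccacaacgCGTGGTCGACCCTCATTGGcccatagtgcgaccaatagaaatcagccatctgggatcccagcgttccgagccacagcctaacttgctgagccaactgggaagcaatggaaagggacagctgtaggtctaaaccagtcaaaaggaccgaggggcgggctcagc
The Hspa1a and Hspa1b stretches differed at 3 of 250 bases and hold the same element from 104 bases before the start. In Hspe1 the element runs for 18 bases in overlapping copies, from 89 to 72 bases before its start, and the same bases occur on the opposite strand in 1 of 2 windows of Hspd1. Hsp90b1 holds 2 ER stress response elements, and its second and that of Calr lie on the opposite strand.

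The first comparison asks what the Batf3 vector changed in non-stimulated cells. Most of the chaperone list was lower with Batf3. Of 49 tested members 41 fell and 1 rose at an adjusted p under 0.05 (edgeR quasi-likelihood test over 15702 genes), where 23% of all tested genes fell and 16.3% rose. The median log2 change of the members was -0.28, against -0.024 over all genes. For 42 members the libraries of both groups did not overlap, as for 47.8% of all genes. The median over all genes was between 0.0041 and 0.0048, with that of the members at -0.26 or -0.25, without Batf3 stimulated replicate 1 or 2 or any 1 control stimulated library and with only the 6 libraries compared. When a change beyond 1.2-fold was required, 19 members fell, where 4.83% of all genes did. Scaled by library sizes alone, 37 members fell and 3 rose, and the calls that rose made up 60.1% of those over all genes, against 41.5% with TMM factors. Leaving out 1 library ended the call of 5 of the 41 genes. These were Hsf1, Dnajb6, Edem1, Manf and Sdf2l1.

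Among cytosolic heat shock genes 14 of 18 tested fell, with a median log2 change of -0.31. Hspa8 (ENSMUSG00000015656, chr9:40800984-40810087, plus strand; positions here and below are from GENCODE M21 on GRCm38) had 2362, 2356 and 2405 CPM in Batf3 non-stimulated libraries, against 3577, 3613 and 3594 CPM in control non-stimulated libraries. All 3 Batf3 libraries lay below the control libraries, with a log2 change of -0.60 ± 0.032 (adjusted p = 8.36e-35). Hsp90ab1 (ENSMUSG00000023944, chr17:45567775-45573271, minus strand) had 1394, 1418 and 1413 CPM with Batf3, against 2026, 2044 and 2037 CPM in control cells. The groups did not overlap and the log2 change was -0.53 ± 0.033 (adjusted p = 2.94e-31). Hsp90aa1, the inducible HSP90, fell by a like amount, to 438, 459 and 449.6 CPM in Batf3 cells, against 648, 659 and 658 CPM in control cells, a log2 change of -0.54 ± 0.034 (adjusted p = 1.04e-16).

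The largest falls of the list were those of the inducible HSP70 genes. Hspa1a (ENSMUSG00000091971, chr17:34969190-34972156, minus strand) had 2.23, 3.59 and 1.99 CPM in Batf3 libraries, against 5.85, 5.24 and 6.82 CPM in control libraries. Hspa1b (ENSMUSG00000090877, chr17:34956436-34959238, minus strand) had 3.89, 5.06 and 2.63 CPM, against 7.84, 7.82 and 9.14 CPM. Every Batf3 library was below every control library for both genes, with log2 changes of -1.195 ± 0.18 (adjusted p = 4.14e-08) and -1.097 ± 0.15 (adjusted p = 4.66e-09). Their levels were low, and the SE is several times that of Hspa8. Hsph1 (HSP110), which releases ADP from HSP70, was far more abundant, with 94.3, 97.2 and 94.8 CPM in Batf3 cells, against 149, 146 and 148 CPM in control cells. Its log2 change was -0.63 ± 0.043 (adjusted p = 5.95e-24) with no overlap between the groups.

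Helpers of HSP70 and HSP90 fell as well. Log2 changes were -0.42 ± 0.045 for Ahsa1, an activator of the HSP90 ATPase, -0.38 ± 0.046 for St13 (HIP), which binds HSP70, and -0.34 ± 0.041 for Stip1 (HOP), which links HSP70 to HSP90. Hspa4, an HSP110 relative, and the J-domain protein Dnaja2 both had a log2 change of -0.28, and Dnaja1, of the same J-domain class, one of -0.22. Hsf1 had 45.0, 45.1 and 46.3 CPM in Batf3 cells, against 48.8, 50.6 and 49.4 CPM in control cells, a small log2 change of -0.13 ± 0.056 (adjusted p = 0.0341). When 1 library was left out, this call stayed only if that was Batf3 stimulated replicate 3, Batf3 non-stimulated replicate 3 or control non-stimulated replicate 1 or 3. It was lost without any of the other 8 libraries (adjusted p between 0.0828 and 0.118) and with DESeq2 (adjusted p = 0.0830). Dnajb6 had a log2 change of -0.10 ± 0.041, and its call was lost without any of 7 libraries, all except Batf3 stimulated replicate 3, Batf3 non-stimulated replicates 1 and 2 and control non-stimulated replicates 1 and 2 (adjusted p between 0.0922 and 0.143). Hspa4l, Hspa14, Dnajb1 and Dnajb4 did not pass the test, with log2 changes of 0.15 ± 0.072, -0.0071 ± 0.053, -0.024 ± 0.051 and -0.14 ± 0.11. Without Batf3 stimulated replicate 1 or 2 or any 1 control stimulated library, Hspa4l rose (adjusted p between 0.0396 and 0.0437).

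All 3 mitochondrial chaperones fell, with a median log2 change of -0.52. Hspd1 (HSP60; ENSMUSG00000025980, chr1:55077835-55088243, minus strand) had 187, 201 and 191 CPM in Batf3 non-stimulated libraries, against 295, 299 and 317 CPM in control non-stimulated libraries. Its co-chaperonin Hspe1 (HSP10), which caps the HSP60 ring, had 40.9, 48.5 and 46.3 CPM, against 64.8, 64.1 and 65.3 CPM. Hspa9 (mortalin) had 198, 192 and 198 CPM, against 265, 271 and 275 CPM. No Batf3 library reached the level of a control library for these genes. The log2 changes were -0.65 ± 0.037 (adjusted p = 1.02e-26) for Hspd1, -0.52 ± 0.053 (adjusted p = 8.39e-14) for Hspe1 and -0.47 ± 0.038 (adjusted p = 1.67e-22) for Hspa9.

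All 7 TRiC subunits fell, with a median log2 change of -0.29. Cct3 (ENSMUSG00000001416, chr3:88297116-88321767, plus strand) had 209, 206 and 212 CPM in Batf3 cells, against 311, 311 and 309 CPM in control cells, and stood apart from the other subunits with a log2 change of -0.57 ± 0.037 (adjusted p = 8.91e-26). The remaining subunits lay between -0.35 for Cct8 and -0.15 for Cct4. Tcp1, the first subunit of the ring, had 189.7, 187 and 193 CPM with Batf3, against 235, 234 and 224 CPM in control cells, a log2 change of -0.28 ± 0.038 (adjusted p = 5.55e-12). Cct3 and Cct4 thus stood at the ends of the class.

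Of 16 ER chaperones and folding enzymes 14 fell, with a median log2 change of -0.27. Hspa5 (BiP; ENSMUSG00000026864, chr2:34771970-34777547, plus strand) had 435, 452 and 461 CPM in Batf3 non-stimulated libraries, against 682, 693 and 672 CPM in control non-stimulated libraries. The Batf3 libraries were all lower, with a log2 change of -0.60 ± 0.034 (adjusted p = 4.66e-30). Calr, the lectin chaperone calreticulin, had 295, 292 and 304 CPM, against 411, 422 and 426 CPM, a log2 change of -0.50 ± 0.036 (adjusted p = 1.84e-24). Hyou1 (GRP170), a nucleotide exchange factor of BiP, had 104, 112 and 103 CPM, against 142, 138 and 143 CPM, a log2 change of -0.41 ± 0.042 (adjusted p = 4.06e-16). Groups did not overlap for either gene.

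Smaller falls were found for Hsp90b1, with 268, 295 and 282 CPM in Batf3 cells, against 331, 342 and 349 CPM in control cells and a log2 change of -0.27 ± 0.036 (adjusted p = 2.18e-10). The BiP co-chaperones Dnajb11 and Dnajc3 and the ER stress-inducible Creld2 had log2 changes of -0.26, -0.18 and -0.29, all called. Canx (calnexin) changed by -0.28 ± 0.037, and the disulfide isomerases Pdia6, Pdia4, Pdia3 and P4hb by -0.32, -0.30, -0.24 and -0.18 on the log2 scale. Sdf2l1, an ER stress-inducible partner of BiP cycling, had 17.5, 17.0 and 21.5 CPM, against 24.2, 21.9 and 21.6 CPM. The groups did not overlap. The log2 change was -0.27 ± 0.081 (adjusted p = 0.00460), and the call was lost without Batf3 non-stimulated replicate 2 (adjusted p = 0.0528). For Manf, a secreted ER stress factor, libraries overlapped, and its log2 change of -0.15 ± 0.052 lost its call without Batf3 replicate 2 or control replicate 3 (adjusted p = 0.115 and 0.0537). Dnajb9 and Hspa13 did not pass the test, with log2 changes of -0.024 ± 0.12 and 0.039 ± 0.093.

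The UPR regulators did not move as 1 group. Xbp1 (ENSMUSG00000020484, chr11:5520659-5525893, plus strand) had 89.3, 83.8 and 88.8 CPM in Batf3 non-stimulated cells, against 121, 124 and 125 CPM in control non-stimulated cells, and fell with a log2 change of -0.50 ± 0.044 (adjusted p = 2.46e-17). The count table sums spliced and unspliced Xbp1 RNA, so splicing was not measured. Herpud1 (ENSMUSG00000031770, chr8:94386438-94395377, plus strand), a component of ER-associated degradation, had 40.2, 40.5 and 39.0 CPM, against 51.6, 49.4 and 56.4 CPM, a log2 change of -0.39 ± 0.056 (adjusted p = 7.01e-10). All Batf3 libraries were lower for both genes.

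Ern1 (ENSMUSG00000020715, chr11:106394650-106487852, minus strand), which encodes the enzyme that splices Xbp1, was the 1 member that rose. It had 16.4, 15.6 and 15.4 CPM in Batf3 libraries, against 11.96, 12.3 and 12.8 CPM in control libraries, with no overlap and a log2 change of 0.36 ± 0.093 (adjusted p = 0.000886). Atf6 had 66.3, 66.1 and 63.3 CPM, against 66.7, 60.3 and 63.5 CPM, which overlapped. Its log2 change of 0.039 ± 0.051 (adjusted p = 0.530) did not pass the test, but did when scaled by library sizes alone (0.11, adjusted p = 0.0383). Edem1, which delivers misfolded glycoproteins to degradation, had a small log2 change of -0.10 ± 0.038 whose call was lost without any of 7 libraries, all except Batf3 stimulated replicate 3, Batf3 non-stimulated replicates 1 and 3 and control non-stimulated replicates 2 and 3 (adjusted p between 0.0553 and 0.0954).

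**Figure D3:**
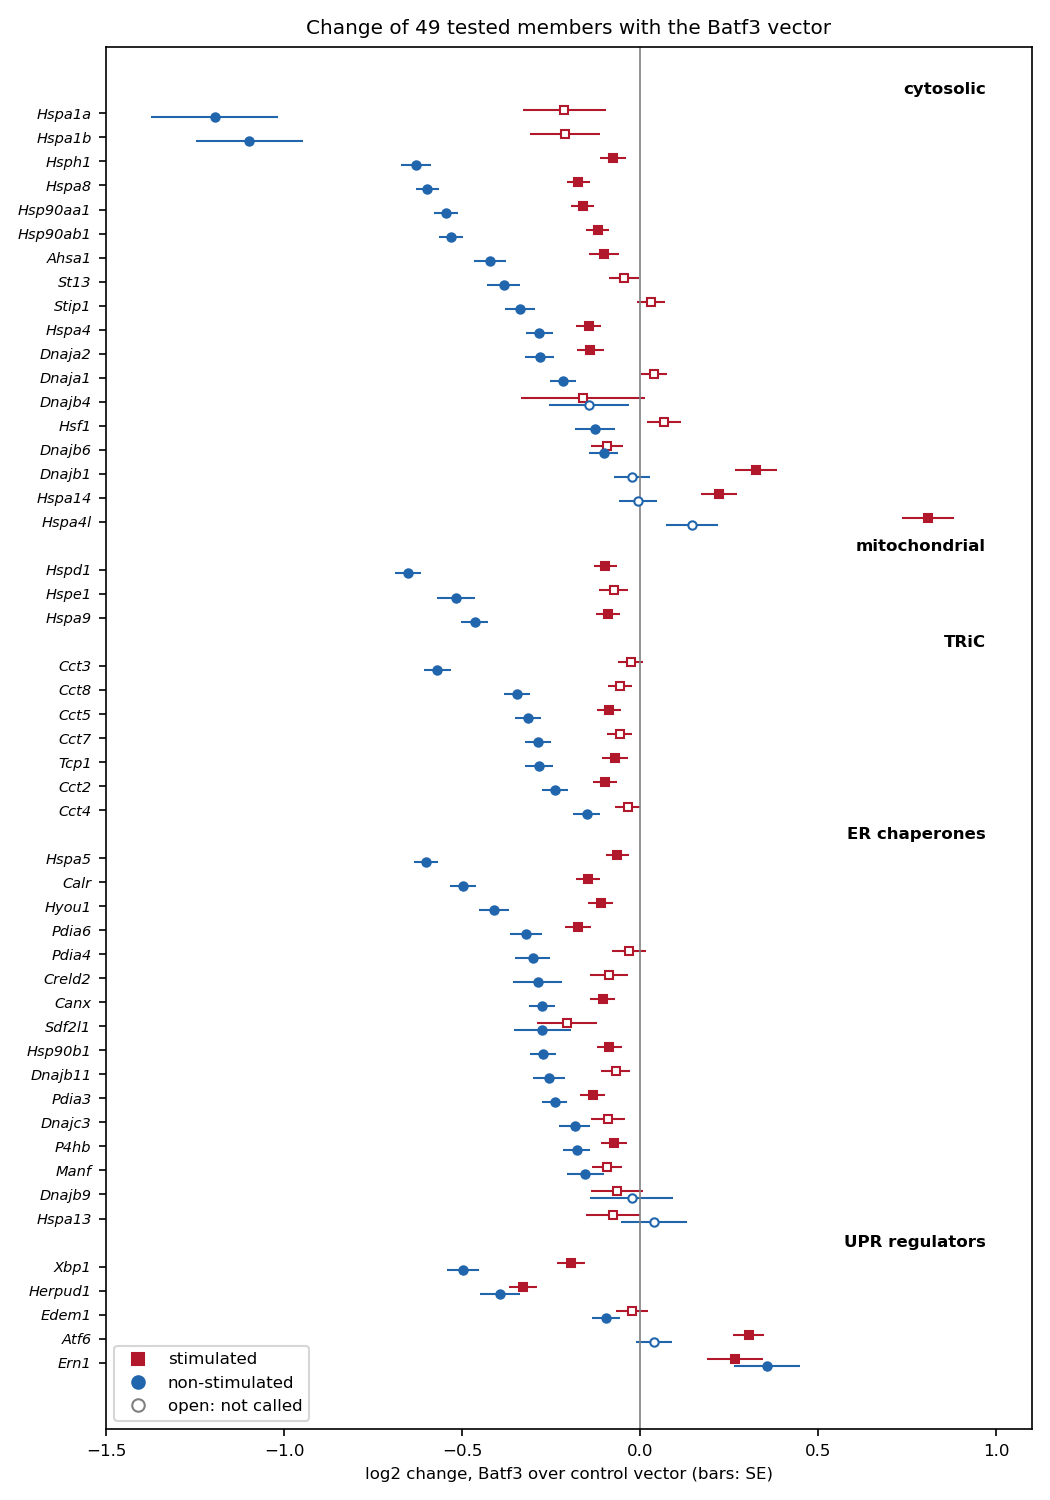
Log2 change of the 49 tested members, Batf3 over control vector, in stimulated (squares) and non-stimulated (circles) cells, by class. Bars are SE, filled points passed an adjusted p of 0.05 and open ones did not. In non-stimulated cells 41 members fell, down to -1.195 for Hspa1a, and in stimulated cells 22 fell, none by more than the -0.33 of Herpud1.

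The second comparison asks what the Batf3 vector changed in stimulated cells. Most differences were small, and a few members rose. Of 49 members 22 fell and 5 rose, where 14.6% of all genes fell and 14.8% rose. The median log2 change was -0.087, against 0.0016 over all genes. Libraries of the 2 groups did not overlap for 32 members, and for 39.8% of all genes. No member fell beyond 1.2-fold at an adjusted p under 0.05 (edgeR glmTreat, 1 at an unadjusted p under 0.05), where 2.71% of all genes did, and 1 rose beyond it, where 5.87% did. Without a minimum fold, DESeq2 called 23 falls. Scaled by library sizes alone, 10 members fell and 7 rose, and the calls that rose made up 65.6% of those over all genes, against 50.3% with TMM factors.

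Hspa4l (ENSMUSG00000025757, chr3:40744495-40796103, plus strand), a member of the HSP110 family, had the largest change of the list in these cells and the opposite direction from its class. It had 38.2, 38.8 and 40.9 CPM in Batf3 stimulated libraries, against 22.1, 24.2 and 21.2 CPM in control stimulated libraries. All Batf3 libraries were higher, with a log2 change of 0.81 ± 0.073 (adjusted p = 2.54e-15). Dnajb1 (HSP40), the J-domain partner of the inducible HSP70, had 53.3, 56.5 and 53.0 CPM, against 37.8, 45.8 and 46.3 CPM, also without overlap. It rose with a log2 change of 0.32 ± 0.059 (adjusted p = 7.66e-06). Hspa14, an HSP70 relative bound to ribosomes, had 90.1, 87.0 and 86.2 CPM with Batf3, against 78.0, 73.2 and 74.7 CPM in control cells, and rose with a log2 change of 0.22 ± 0.050 (adjusted p = 0.000116).

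Both remaining rises were UPR sensors. Atf6 (ENSMUSG00000026663, chr1:170704674-170867771, minus strand) had 149.5, 151 and 153 CPM in Batf3 stimulated cells, against 125, 122 and 120.3 CPM in control stimulated cells, with no overlap and a log2 change of 0.30 ± 0.044 (adjusted p = 2.30e-09). Ern1 had 25.7, 27.3 and 29.1 CPM, against 20.9, 23.6 and 23.9 CPM, a log2 change of 0.27 ± 0.079 (adjusted p = 0.00510) that lost its call without control stimulated replicate 1 (adjusted p = 0.0816). Herpud1 and Xbp1 had the opposite sign. Herpud1 had 222, 219 and 232 CPM with Batf3, against 285, 277 and 284 CPM in control cells, the largest fall of the list, with a log2 change of -0.33 ± 0.039 (adjusted p = 4.35e-12). Xbp1 had 189.9, 189 and 195 CPM, against 226, 219.9 and 211 CPM, and fell with a log2 change of -0.19 ± 0.040 (adjusted p = 5.23e-06). The groups did not overlap for either gene. With 2 members up, 2 down and Edem1 at -0.023 ± 0.045, the median of the 5 regulators was -0.023, and 0.023 when scaled by library sizes alone.

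Among cytosolic genes 7 of 18 fell, with a median log2 change of -0.097. Hspa8 had 5126, 5111 and 5139 CPM in Batf3 stimulated libraries, against 5841, 5732 and 5773 CPM in control stimulated libraries, a log2 change of -0.17 ± 0.032 (adjusted p = 3.07e-11). Hsp90aa1 had 1576, 1568 and 1406 CPM, against 1719, 1702 and 1669.5 CPM, with replicate 3 of Batf3 the lowest of all and a log2 change of -0.16 ± 0.033 (adjusted p = 3.45e-05). Hsp90ab1 had 4039.8, 4014 and 4075 CPM, against 4434, 4377 and 4361 CPM, a log2 change of -0.12 ± 0.032 (adjusted p = 1.72e-06). For these abundant genes the libraries separated fully although the change was small. Hspa4 and Dnaja2 also fell, with log2 changes of -0.14 ± 0.035 (adjusted p = 1.55e-05) and -0.14 ± 0.039 (adjusted p = 0.000239). Hspa1a and Hspa1b, which fell most in non-stimulated cells, had log2 changes of -0.21 ± 0.12 (adjusted p = 0.172) and -0.21 ± 0.10 (adjusted p = 0.104) and did not pass the test. Hsph1 and Ahsa1 lay at -0.077 ± 0.037 and -0.10 ± 0.042. The call of Hsph1 was lost without Batf3 replicate 2 or control replicate 1, and that of Ahsa1 without Batf3 replicate 1 or control replicate 2, with adjusted p between 0.0529 and 0.161.

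The cytosolic genes Hsf1, Dnaja1, Stip1, St13, Dnajb4 and Dnajb6 did not pass the test in stimulated cells, with log2 changes between -0.16 for Dnajb4 and 0.067 for Hsf1. Hsf1 and Dnaja1 rose when scaled by library sizes alone, and Dnajb6 fell without Batf3 replicate 1 or control replicate 1 (adjusted p = 0.00748 and 0.0318).

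Of the mitochondrial chaperones Hspd1 and Hspa9 fell, with log2 changes of -0.10 ± 0.033 (adjusted p = 0.00274) and -0.090 ± 0.033 (adjusted p = 0.00226). Hspe1 had one of -0.074 ± 0.041 (adjusted p = 0.137), which passed the test without Batf3 replicate 1 (adjusted p = 0.0416). Of TRiC 3 subunits fell, Cct2, Cct5 and Tcp1, with log2 changes of -0.10 ± 0.034, -0.087 ± 0.034 and -0.071 ± 0.036, and Cct3 had 533, 540.3 and 556 CPM in Batf3 cells, against 547, 562 and 550.2 CPM in control cells, which overlapped. Cct4, Cct7 and Cct8 did not pass the test, with log2 changes of -0.035, -0.058 and -0.057, but Cct7 did without Batf3 replicate 3 (adjusted p = 0.0111) and Cct8 without Batf3 replicate 2 (adjusted p = 0.0424). The call of Tcp1 was lost without Batf3 replicate 1 or 2 or control replicate 1 (adjusted p between 0.0569 and 0.167). Scaled by library sizes alone, none of these 5 falls passed the test, with adjusted p of 0.140 for Hspd1, 0.177 for Hspa9, 0.143 for Cct2, 0.269 for Cct5 and 0.569 for Tcp1.

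Of the 16 ER genes 8 fell, with a median log2 change of -0.088. The largest were Pdia6 with 350.4, 340.1 and 349 CPM in Batf3 stimulated cells, against 388, 391 and 393 CPM in control stimulated cells, and Calr with 843, 843 and 858 CPM, against 956, 931 and 931 CPM. Their log2 changes were -0.17 ± 0.037 (adjusted p = 1.70e-06) and -0.15 ± 0.034 (adjusted p = 1.92e-06), with no overlap. Hspa5, at 2359.6, 2431 and 2376 CPM, against 2553, 2491 and 2451 CPM, had a log2 change of -0.065 ± 0.032 (adjusted p = 0.0251), and the groups did not overlap. Its call was lost without Batf3 replicate 1 or control replicate 1 (adjusted p = 0.0634 and 0.120). The call of Hsp90b1 was lost without Batf3 replicate 3 or control replicate 1, and that of P4hb without Batf3 replicate 1 or 2 or control replicate 1 or 3 (adjusted p between 0.0581 and 0.149). Their log2 changes were -0.087 ± 0.034 and -0.074 ± 0.036. Canx, Pdia3 and Hyou1 made up the rest, at log2 changes of -0.11 ± 0.034, -0.13 ± 0.035 and -0.11 ± 0.035.

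The other 8 ER genes did not pass the test in stimulated cells, with log2 changes between -0.21 for Sdf2l1 and -0.032 for Pdia4. Sdf2l1 had 19.0, 20.5 and 19.5 CPM in Batf3 cells, against 22.7, 21.7 and 23.8 CPM in control cells, which did not overlap, with a log2 change of -0.21 ± 0.084 (adjusted p = 0.0561). It passed the test without replicate 2 of Batf3 stimulated, control stimulated or Batf3 non-stimulated cells or replicate 3 of Batf3 non-stimulated cells (adjusted p between 0.0423 and 0.0482). Manf passed it without Batf3 stimulated replicate 2 (adjusted p = 0.00625) and Dnajc3 without Batf3 stimulated replicate 1 (adjusted p = 0.0260).

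**Figure D4:**
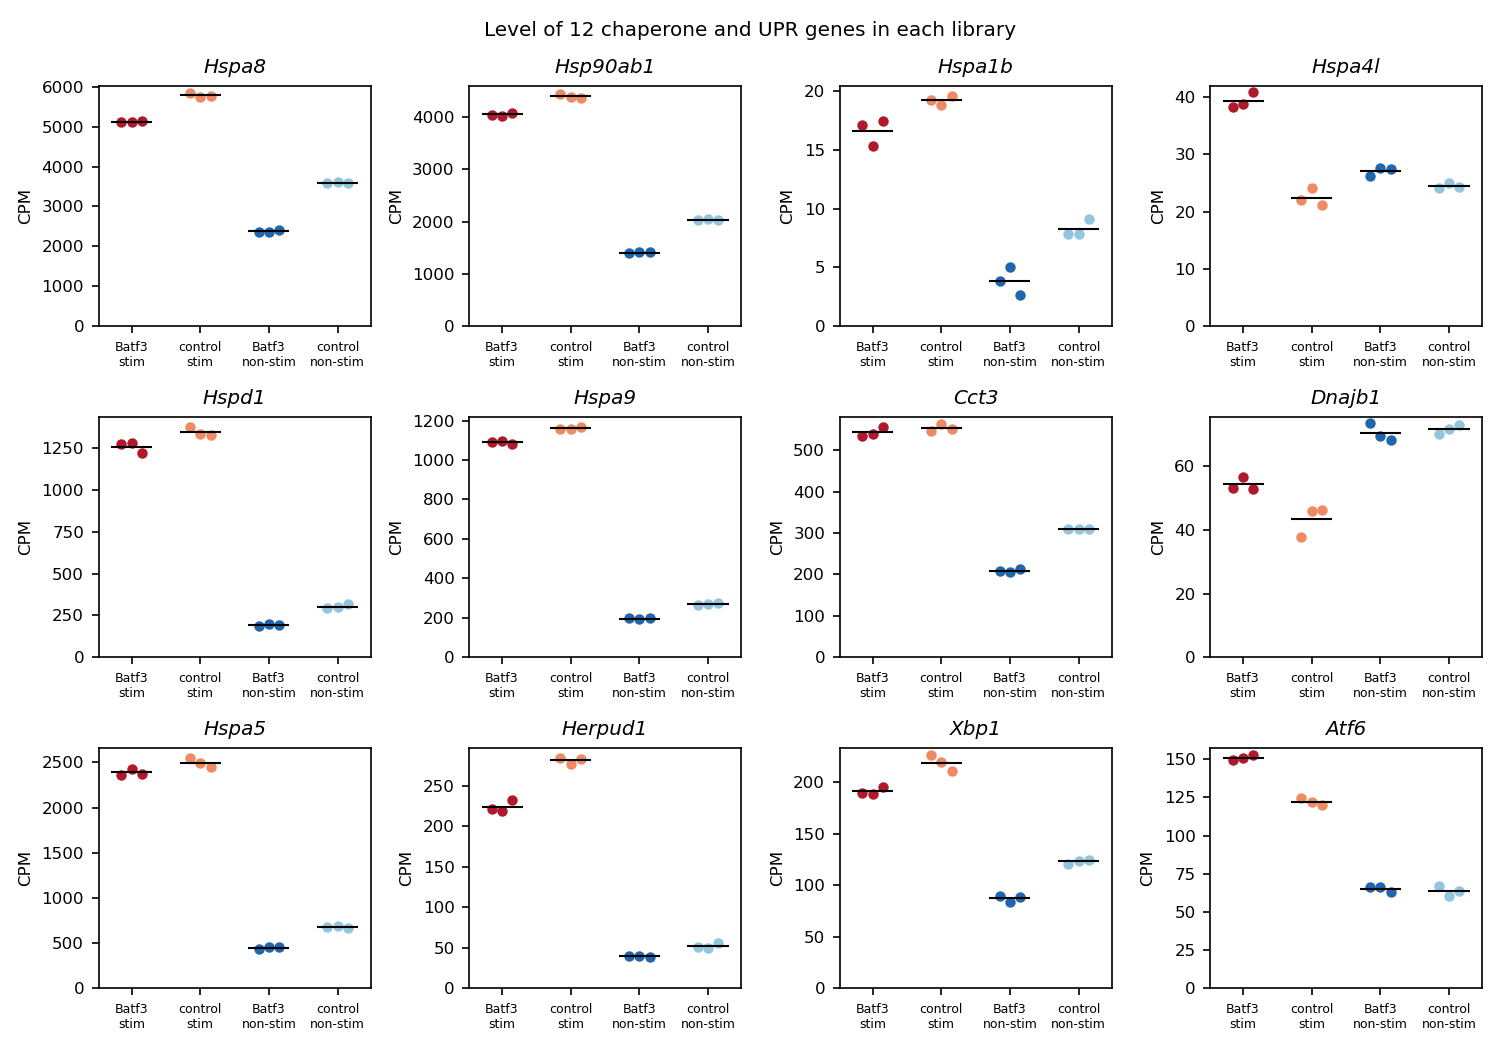
CPM of 12 members in each of the 12 libraries, with the group mean as a line, on axes from 0. Hspa8, Hsp90ab1, Hspd1, Hspa9, Cct3 and Hspa5 are lower with Batf3 mainly in non-stimulated cells, while Hspa4l, Dnajb1 and Atf6 are higher with Batf3 in stimulated cells.

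The third question is what stimulation did under each vector. Most members of every class rose. In Batf3 cells 43 of 49 members rose and 5 fell, where 41.2% of all genes rose and 41.4% fell, and in control cells 40 rose and 6 fell, where 39.6% rose and 40.7% fell. Of these, 40 rose and 5 fell under both vectors. The median log2 change of the members was 1.21 in Batf3 cells and 0.98 in control cells, against 0.011 and -0.0083 over all genes. Libraries of stimulated and non-stimulated cells did not overlap for 47 members under either vector, where the share over all genes was 82.7% in Batf3 cells and 81.2% in control cells. Scaling by library sizes alone lowered the median over all genes to -0.20 in Batf3 cells and -0.19 in control cells, and that of the members to 1.00 and 0.80.

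The mitochondrial chaperones had a median log2 change of 2.48 in Batf3 cells and 2.10 in control cells, the highest of the 5 classes but resting on 3 genes. The 10 mitochondrial genes of the wider list had medians of 0.72 and 0.54. Hspd1 had 1276, 1280.4 and 1219 CPM in Batf3 stimulated libraries, against 187, 201 and 191 CPM in Batf3 non-stimulated libraries. In control cells it had 1377, 1334 and 1330.1 CPM when stimulated, against 295, 299 and 317 CPM when not. These are 6.51-fold and 4.44-fold rises, with log2 changes of 2.703 ± 0.036 (adjusted p = 4.67e-61) and 2.15 ± 0.035 (adjusted p = 1.20e-56). Hspa9 rose with log2 changes of 2.48 ± 0.036 in Batf3 cells and 2.10 ± 0.035 in control cells, and Hspe1 with 2.06 ± 0.049 and 1.62 ± 0.046.

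The TRiC subunits rose within a narrow range, between 1.18 for Tcp1 and 1.51 for Cct7 on the log2 scale in Batf3 cells, and between 0.84 for Cct3 and 1.28 for Cct7 in control cells. Cct3 had 533, 540.3 and 556 CPM in Batf3 stimulated cells, against 209, 206 and 212 CPM in Batf3 non-stimulated cells, with a log2 change of 1.38 ± 0.036 (adjusted p = 2.22e-48). In control cells it had 547, 562 and 550.2 CPM, against 311, 311 and 309 CPM, with a log2 change of 0.84 ± 0.035 (adjusted p = 4.35e-37). Tcp1 changed by 0.97 ± 0.037 (adjusted p = 9.54e-39) in control cells. The range of each class is shown in the plot of stimulation changes by class.

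**Figure D5:**
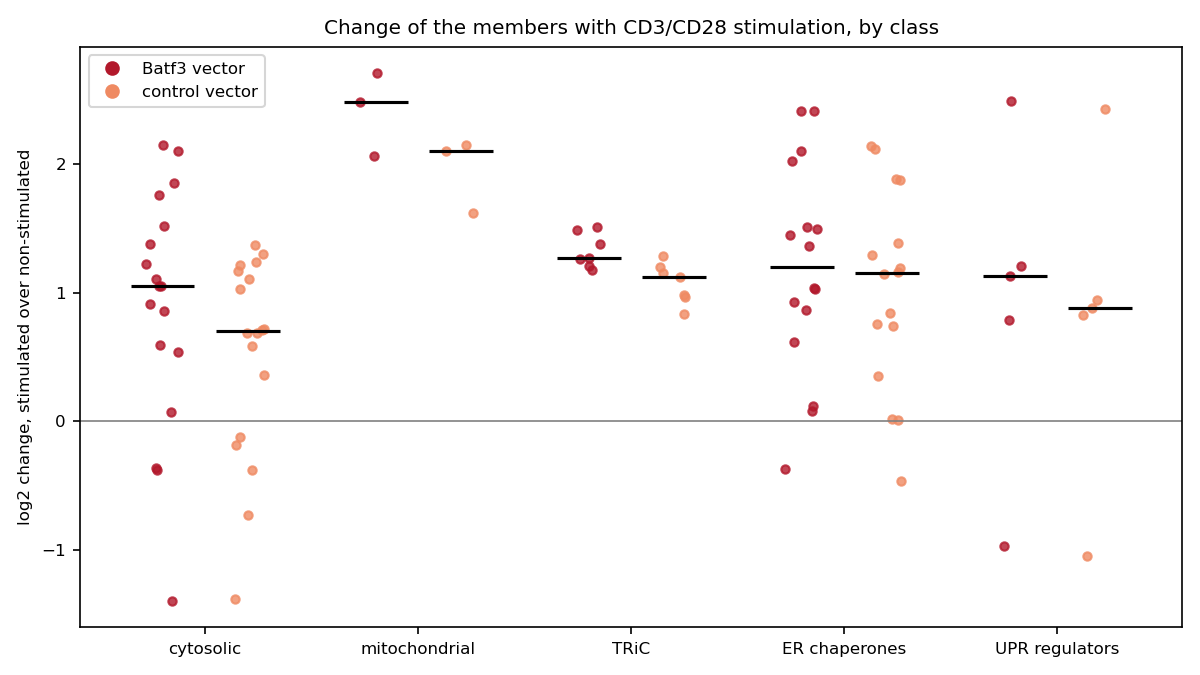
Log2 change of each tested member, stimulated over non-stimulated, by class, with Batf3 vector cells left and control vector cells right in each pair. Lines are class medians. TRiC subunits lie close together, while ER genes reach from -0.46 for Dnajc3 to 2.14 for Dnajb9 under the control vector, and the mitochondrial medians are 2.48 under Batf3 and 2.10 under the control vector.

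ER chaperones rose in 14 of 16 cases in Batf3 cells and in 13 in control cells, with class medians of 1.199 and 1.16, but the spread was wide. Hspa5 had 2359.6, 2431 and 2376 CPM in Batf3 stimulated cells, against 435, 452 and 461 CPM in Batf3 non-stimulated cells, a log2 change of 2.41 ± 0.034 (adjusted p = 1.59e-64). In control cells it had 2553, 2491 and 2451 CPM, against 682, 693 and 672 CPM, a log2 change of 1.87 ± 0.033 (adjusted p = 3.35e-59). Hyou1 rose with 2.41 ± 0.039 and 2.11 ± 0.038, Pdia6 with 2.03 ± 0.042 and 1.88 ± 0.040, and Dnajb9 (ERdj4), a J-domain protein that acts on IRE1, with 2.10 ± 0.10 and 2.14 ± 0.10 on the log2 scale in Batf3 and control cells. For Dnajb9 the levels were 38.5 ± 4.51 CPM in Batf3 stimulated cells, 40.2 ± 1.09 CPM in control stimulated cells, 8.98 ± 1.26 CPM in Batf3 non-stimulated cells and 9.13 ± 1.104 CPM in control non-stimulated cells, and its log2 change with Batf3 was -0.065 ± 0.072 in stimulated and -0.024 ± 0.12 in non-stimulated cells.

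Lesser rises were those of Manf, Creld2, Canx, Calr, Hspa13, Hsp90b1, Dnajb11, P4hb and Pdia4, with log2 changes between 0.62 for Pdia4 and 1.51 for Calr in Batf3 cells, and between 0.35 for Pdia4 and 1.39 for Manf in control cells. A few ER members changed little or fell. Sdf2l1 had 22.7, 21.7 and 23.8 CPM in control stimulated cells, against 24.2, 21.9 and 21.6 CPM in control non-stimulated cells. The libraries overlapped, with log2 changes of 0.079 ± 0.085 (adjusted p = 0.383) in Batf3 cells and 0.011 ± 0.081 (adjusted p = 0.902) in control cells. Pdia3 (ERp57), which also serves the loading of MHC class I, had log2 changes of 0.12 ± 0.035 (adjusted p = 5.50e-05) and 0.015 ± 0.035 (adjusted p = 0.608). Scaled by library sizes alone, the changes of Pdia3 were negative, -0.093 in Batf3 cells and -0.17 in control cells, and that of Sdf2l1 was -0.18 in control cells. Dnajc3 (p58IPK), an ER co-chaperone that restrains PERK, fell with log2 changes of -0.37 ± 0.045 in Batf3 cells and -0.46 ± 0.045 in control cells. The 7 genes whose promoters hold an ER stress response element did not change alike. In control cells Hspa5 and Pdia6 had log2 changes of 1.87 and 1.88, Calr, Canx, Creld2 and Hsp90b1 of 1.16, 1.19, 1.30 and 0.84, and Dnajc3 of -0.46.

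The class median of cytosolic genes was 1.05 in Batf3 cells and 0.70 in control cells, with 15 and 13 members up and 3 and 4 down. Hsp90ab1 had log2 changes of 1.52 ± 0.032 in Batf3 cells and 1.11 ± 0.032 in control cells, Hsp90aa1 of 1.76 ± 0.034 and 1.37 ± 0.033, and Hspa8 of 1.11 ± 0.032 and 0.69 ± 0.032. Hspa1a had 12.7, 10.5 and 11.4 CPM in Batf3 stimulated cells, against 2.23, 3.59 and 1.99 CPM in Batf3 non-stimulated cells, and a log2 change of 2.15 ± 0.17. In control cells its log2 change was 1.17 ± 0.13. Of the helpers, Hsph1 rose with 1.85 ± 0.041 and 1.30 ± 0.039 and Hspa4 with 1.38 ± 0.037 and 1.24 ± 0.036 in Batf3 and control cells. Stip1, St13, Ahsa1, Dnaja2 and Hspa14 rose by between 0.59 and 1.05 on the log2 scale in Batf3 cells and between 0.36 and 0.72 in control cells. Hsf1 rose by 1.22 ± 0.052 and 1.03 ± 0.052 on the log2 scale.

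Of the 6 members that fell on stimulation in control cells, 5 were J-domain proteins. Of the 8 J-domain members the other 3, Dnaja2, Dnajb11 and Dnajb9, rose in control cells, with log2 changes of 0.72, 0.74 and 2.14. Dnajb4 had 3.72, 3.86 and 4.20 CPM in Batf3 stimulated cells, against 8.99, 11.2 and 10.8 CPM in Batf3 non-stimulated cells, and 3.65, 4.73 and 4.80 CPM in control stimulated cells, against 10.03, 12.3 and 11.9 CPM in control non-stimulated cells. The log2 changes were -1.39 ± 0.15 (adjusted p = 1.24e-13) and -1.38 ± 0.14 (adjusted p = 7.02e-14). Dnajb1 had log2 changes of -0.38 ± 0.053 in Batf3 cells and -0.73 ± 0.056 in control cells, and Dnajb6 of -0.36 ± 0.043 and -0.37 ± 0.042. Dnaja1 fell in control cells, with a log2 change of -0.18 ± 0.037 (adjusted p = 3.22e-07). In Batf3 cells it had 0.074 ± 0.037 (adjusted p = 0.0250) with overlapping libraries. That call was lost without Batf3 non-stimulated replicate 1, Batf3 stimulated replicate 1 or 2 or any control stimulated library (adjusted p between 0.222 and 0.583), and the change was -0.14 when scaled by library sizes alone. Hspa4l rose in Batf3 cells, with a log2 change of 0.54 ± 0.068 (adjusted p = 3.22e-11), and had -0.12 ± 0.077 (adjusted p = 0.114) in control cells, where it fell without control stimulated replicate 2 (adjusted p = 0.0493) and when scaled by library sizes alone (-0.31).

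Of the UPR regulators 4 rose and 1 fell under both vectors, with class medians of 1.13 in Batf3 cells and 0.88 in control cells. Herpud1 had 222, 219 and 232 CPM in Batf3 stimulated cells, against 40.2, 40.5 and 39.0 CPM in Batf3 non-stimulated cells, and 285, 277 and 284 CPM in control stimulated cells, against 51.6, 49.4 and 56.4 CPM in control non-stimulated cells. These are log2 changes of 2.49 ± 0.049 (adjusted p = 1.33e-52) and 2.43 ± 0.047 (adjusted p = 4.71e-53), the highest of the list in control cells. Xbp1 rose by 1.13 ± 0.043 and 0.83 ± 0.041, Atf6 by 1.21 ± 0.047 and 0.95 ± 0.048, and Ern1 by 0.79 ± 0.082 and 0.88 ± 0.090. Edem1 fell to 112, 109.6 and 119 CPM in Batf3 stimulated cells, against 224, 219 and 224 CPM in Batf3 non-stimulated cells, with log2 changes of -0.97 ± 0.042 in Batf3 cells and -1.04 ± 0.042 in control cells.

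The last comparison tests whether the effect of Batf3 differed between the cultures. The interaction is the log2 change with Batf3 in stimulated cells minus that in non-stimulated cells, and a positive value is equally a larger response to stimulation under Batf3. It was positive and called for 37 of 49 members, where 14.6% of all genes had a positive and 6.08% a negative called value. No member had a negative called value (edgeR quasi-likelihood test, 0 at an unadjusted p under 0.05 and 0 with DESeq2). The median was 0.23, against 0.054 over all genes. Without Batf3 stimulated replicate 1 or 2 or any 1 control stimulated library the median over all genes was between 0.016 and 0.020, and that of the members between 0.18 and 0.21. Beyond 1.2-fold it was 13 members, where 3.24% of all genes passed. Of the 37 calls, 9 were lost with no filter on low counts, 5 when scaled by library sizes alone and 3 with DESeq2. All 41 members that fell with Batf3 in non-stimulated cells were nearer to 0 in stimulated cells, and 33 of them had a called interaction. The change in non-stimulated cells picked these members and also enters the interaction, since the comparisons share libraries, so this count is a description. Leaving out 1 library left between 28 and 37 calls and ended that of Hsf1, Hspa4, Hspa14, Dnaja2, Cct2, Cct4, Dnajb11, Pdia3 and Pdia6. Each of these 9 lost its call without control stimulated replicate 2 and without control stimulated replicate 3, all but Cct2 without Batf3 stimulated replicate 1, and all but Hspa14 without Batf3 stimulated replicate 2 (adjusted p between 0.0508 and 0.389 over all such losses). The remaining libraries ended the calls of fewer of them.

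By class, the interaction was called for 16 of 18 cytosolic genes (median 0.34), 3 of 3 mitochondrial chaperones (0.44), 7 of 7 TRiC subunits (0.23), 9 of 16 ER genes (0.16) and 2 of 5 UPR regulators (0.073). The largest values were those of Hspa1a and Hspa1b, 0.98 ± 0.21 (adjusted p = 0.000232) and 0.89 ± 0.18 (adjusted p = 8.58e-05). Hspa4l followed with 0.66 ± 0.10 (adjusted p = 1.89e-07), although it was not among the genes that fell. Hspd1 had 0.55 ± 0.050 (adjusted p = 2.08e-17), Hsph1 0.55 ± 0.056 (adjusted p = 1.46e-15), Cct3 0.54 ± 0.051 (adjusted p = 6.46e-18) and Hspa5 0.54 ± 0.047 (adjusted p = 2.31e-20). Among the main chaperones of the cytosol, Hspa8 had 0.42 ± 0.045 (adjusted p = 1.07e-19) and Hsp90ab1 0.41 ± 0.046 (adjusted p = 1.60e-18).

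UPR genes divided here too. Xbp1 had an interaction of 0.30 ± 0.060 (adjusted p = 3.94e-06) and Atf6 one of 0.27 ± 0.067 (adjusted p = 0.000426). Herpud1, Ern1 and Edem1 had 0.064 ± 0.068 (adjusted p = 0.518), -0.090 ± 0.12 (adjusted p = 0.669) and 0.073 ± 0.059 (adjusted p = 0.338). Herpud1 was lower with Batf3 in both cultures, with log2 changes of -0.33 in stimulated and -0.39 in non-stimulated cells. Dnajb9, Sdf2l1, Manf and Hspa13 of the ER class had interactions of -0.041 ± 0.14, 0.068 ± 0.12, 0.061 ± 0.067 and -0.12 ± 0.12. Creld2 had one of 0.20 ± 0.087, which passed the test without control non-stimulated replicate 1 (adjusted p = 0.0169).

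A wider list of 87 other chaperone and UPR genes, of which 83 were tested, put these members in context. With Batf3 in non-stimulated cells 33 fell and 7 rose (median log2 change -0.12), where 23% of all genes fell and 16.3% rose. In stimulated cells 27 fell and 7 rose (-0.063), where 14.6% of all genes fell and 14.8% rose. Stimulation raised 57 and lowered 15 in Batf3 cells (0.67), where 41.2% of all genes rose and 41.4% fell. It raised 55 and lowered 18 in control cells (0.57), where 39.6% of all genes rose and 40.7% fell. The interaction was positive and called for 14 and negative for 5 (0.036), shares near the 14.6% and 6.08% of all genes. No test compared the wider list with the 49 members.

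The third sensor stood apart. Eif2ak3 (PERK), which phosphorylates the initiation factor eIF2 alpha, had 24.2, 23.8 and 25.7 CPM in Batf3 stimulated cells, 19.2, 19.0 and 19.95 CPM in control stimulated cells, 101, 97.5 and 91.2 CPM in Batf3 non-stimulated cells and 80.4, 77.9 and 74.7 CPM in control non-stimulated cells. It was higher with Batf3 in both cultures, with log2 changes of 0.34 ± 0.078 (adjusted p = 0.000151) in stimulated and 0.31 ± 0.049 (adjusted p = 5.12e-08) in non-stimulated cells. It fell on stimulation, with -1.97 ± 0.062 in Batf3 cells and -2.00 ± 0.068 in control cells.

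Atf4, the transcription factor downstream of PERK, rose on stimulation, with log2 changes of 1.89 ± 0.036 in Batf3 cells and 1.90 ± 0.036 in control cells, and Ddit3 (CHOP) rose with 1.498 ± 0.11 and 1.59 ± 0.10. With Batf3, Atf4 was slightly lower in both cultures, with log2 changes of -0.15 ± 0.034 (adjusted p = 3.91e-06) in stimulated and -0.14 ± 0.039 (adjusted p = 6.73e-05) in non-stimulated cells. Ddit3 had -0.27 ± 0.087 (adjusted p = 0.0142) and -0.17 ± 0.12 (adjusted p = 0.269). Ppp1r15a (GADD34), the phosphatase subunit that reverses the PERK signal, had 226, 231 and 208 CPM in Batf3 stimulated cells, against 247, 249.5 and 254 CPM in control stimulated cells, and 58.5, 62.9 and 57.4 CPM in Batf3 non-stimulated cells, against 45.6, 47.5 and 42.1 CPM in control non-stimulated cells. Its log2 change with Batf3 was -0.17 ± 0.039 (adjusted p = 0.000109) in stimulated and 0.40 ± 0.054 (adjusted p = 4.99e-10) in non-stimulated cells, with an interaction of -0.58 ± 0.067 (adjusted p = 2.31e-11).

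The genes of the wider list named next had, beside those given above, the largest called changes among genes whose mean reached 10 CPM in one of the groups compared. Derl2, an ER degradation channel protein, rose with Batf3 in non-stimulated cells (0.18 on the log2 scale), and Clpp, a mitochondrial protease, Fkbp4, an HSP90 co-chaperone, and Atf6b fell (-0.49, -0.48 and -0.46). In stimulated cells Wfs1, an ER membrane protein, and Unc45a, a myosin co-chaperone, rose (0.78 and 0.36), and the mitochondrial proteases Htra2 and Lonp1 and the HSP70 cofactor Bag2 fell (-0.60, -0.52 and -0.58). On stimulation the largest such rises in Batf3 cells were those of Creb3l2, Lonp1 and Trib3 (2.31, 2.10 and 2.08) and in control cells those of Pdia5, Creb3l2 and Ppp1r15a (2.88, 2.52 and 2.47). After Eif2ak3, the largest falls were those of Os9 and Sugt1 in Batf3 cells (-1.12 and -0.83) and of Hscb and Os9 in control cells (-1.04 and -1.01). Within the same limits the interaction was largest for Bag2, Unc45a and Erp29 (0.70, 0.50 and 0.41), and most negative for Ppp1r15a, Hsf2 and Trib3 (-0.58, -0.45 and -0.35).

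Reads of some members cannot be told from those of near-identical copies. Of 50-base stretches of their annotated transcripts, 62.3% in Hspa1b, 60.4% in Hspa1a, 47.5% in Hsp90aa1, 39.7% in Hspd1, 38.6% in Hspa8, 17.7% in Dnajb6 and 11.9% in Dnaja1 also occurred in another gene. Hspa1a and Hspa1b share the most with each other, and the genes that share most with the others are Gm12346 for Hsp90aa1, Hspd1-ps3 for Hspd1, Gm15459 for Hspa8, Gm2541 for Dnajb6 and Gm15542 for Dnaja1. How reads that align to several places were counted is not given in the sources used here, so the levels of these members are uncertain. Gm15459 had 1329 ± 22.4 CPM in Batf3 non-stimulated cells and 1998 ± 22.6 CPM in control non-stimulated cells, and its log2 change of -0.59 stood beside -0.60 for Hspa8. With each copy's counts added to its member, all calls of these 7 members stayed as they were. Hspd1 and Hspe1 lie head to head on chromosome 1 and overlap by 112 bases.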

How the data were processed

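Poly(A) RNA of the 12 libraries was prepared with a stranded kit, per the labels' protocols. The authors deposited raw counts per gene. STAR 2.7, featureCounts and GRCm38 are named in the submitters' processing notes, while the annotation release, strand setting and treatment of multi-mapped reads were not given in the sources used. The members and lists were chosen with earlier results of these data known. All 12 libraries were fitted together with 4 group means in edgeR 4.0.16 (R 4.3.3, limma 3.58.1), with TMM factors, filterByExpr and the robust quasi-likelihood F-test. The filter kept 15702 of 55335 genes, over which p-values were adjusted (Benjamini-Hochberg, threshold 0.05), and the fit was tested on simulated counts. Groups came from the sample titles. SD belongs to CPM over 3 libraries and SE to a log2 change. The SE was computed from the fit with the quasi-dispersion held at 1 or above, which the test does not do, so for abundant genes it is wider than their p-values imply. CPM per kb used the union of GENCODE M21 exons, whose IDs matched 55154 of the 55335 genes. Shared stretches were counted as 50-base words of M21 transcripts. No pair of libraries within a group agreed within sampling noise (chi-square per degree of freedom between 1.46 and 3.17), so each counted as 1. The highest values, 3.17 and 2.62, were those of Batf3 stimulated replicate 3 with replicates 1 and 2, which gave 1.59 with each other. Alternatives were library sizes alone, DESeq2 1.42.0, no filter, a stricter filter (1 CPM in 3 libraries), a 1.2-fold minimum, the replicate block, each library left out, the 6 libraries compared alone and, chosen after seeing the data, copies summed. All 50 members could be named. Members given in full were up to 4 per class, comparison and direction with the largest called change, a mean of 10 CPM or more where the gene was higher, and 18 main chaperones and UPR genes in every case. Of the wider list, up to 3 genes per comparison and direction under the same minimum were named, and Atf4, Ddit3 and Eif2ak3 in every case.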

Additional observations from a re-analysis of the deposited data

Results flagged for a closer look

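The interaction of vector and stimulation was called in the edgeR fit for 37 members. Over all genes 14.6% had a positive and 6.08% a negative called value. For 9 of the 37 the call was lost without at least 1 single library. These were Hsf1, Hspa4, Hspa14, Dnaja2, Cct2, Cct4, Dnajb11, Pdia3 and Pdia6. Values are log2 changes with Batf3 over control in stimulated cells minus those in non-stimulated cells, and all were positive. Among cytosolic heat shock genes they were 0.98 for Hspa1a, 0.89 for Hspa1b, 0.66 for Hspa4l, 0.55 for Hsph1, 0.42 for Hspa8, 0.41 for Hsp90ab1, 0.38 for Hsp90aa1, 0.37 for Stip1, 0.35 for Dnajb1, 0.34 for St13, 0.32 for Ahsa1, 0.26 for Dnaja1, 0.23 for Hspa14, 0.19 for Hsf1, 0.14 for Hspa4 and 0.14 for Dnaja2. For mitochondrial chaperones they were 0.55 for Hspd1, 0.44 for Hspe1 and 0.38 for Hspa9. The TRiC subunits had 0.54 for Cct3, 0.29 for Cct8, 0.23 for Cct5, 0.23 for Cct7, 0.21 for Tcp1, 0.14 for Cct2 and 0.12 for Cct4.

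ER chaperones had 0.54 for Hspa5, 0.35 for Calr, 0.30 for Hyou1, 0.27 for Pdia4, 0.19 for Hsp90b1, 0.19 for Dnajb11, 0.17 for Canx, 0.15 for Pdia6 and 0.11 for Pdia3. UPR regulators had 0.30 for Xbp1 and 0.27 for Atf6. Of the 37, 33 had fallen with Batf3 in non-stimulated cells, and Hspa4l, Dnajb1, Hspa14 and Atf6 were the 4 that had not. In stimulated cells the same 4 rose with Batf3. Groups of 3 libraries were too small to call a single library an outlier, but each library was left out in turn.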

How the results depend on the processing

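With a 1.2-fold minimum, 0 members rose and 19 fell with Batf3 in non-stimulated cells, 1 rose and 0 fell in stimulated cells, and 13 had a positive interaction. With library sizes alone, 3 rose in non-stimulated cells (Ern1, Hspa4l and Atf6) and 10 fell in stimulated cells. With only the 6 libraries compared, 2 rose in non-stimulated cells, Ern1 and Hspa4l. With no filter on low counts, 38 members fell in non-stimulated cells and 30 in stimulated cells. Leaving out 1 library gave between 1 and 2 rises and between 37 and 41 falls in non-stimulated cells. Library sizes alone reversed the median of UPR regulators with Batf3 in stimulated cells (0.023) and, on stimulation, Dnaja1 (-0.14) and Pdia3 (-0.093) in Batf3 cells and Pdia3 (-0.17) and Sdf2l1 (-0.18) in control cells. The cause was not tested. The median over all genes was then 0.048 with Batf3 in stimulated cells and 0.050 in non-stimulated cells, and on stimulation -0.20 in Batf3 cells and -0.19 in control cells. The share of calls that rose on stimulation over all genes was 41.1% in Batf3 cells and 40.6% in control cells, against 49.9% and 49.3% with TMM factors.

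Same-numbered libraries of the groups compared had correlations of their deviations between -0.067 and 0.074, which shows no pairing by number. With 3 libraries per group, this check cannot exclude one. Libraries with unlike numbers had correlations between -0.18 and 0.14, and what these reflect was not tested. With the replicate block, 1 member rose and 41 fell with Batf3 in non-stimulated cells, 5 rose and 21 fell in stimulated cells, where Tcp1 was lost (adjusted p = 0.0620), and 37 had a positive interaction. All p-values rest on technical replicates of the labels, and depth limits the low genes Hspa1a, Hspa1b, Dnajb4 and Hspb1.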
